A study of Fragaria hybrid cultivar with 9 samples.

Results

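Petals of the pink-flowered strawberry cultivar Sijihong, a hybrid from the genera Fragaria and Potentilla, were compared between the young bud stage (PF_L) and the stage at which coloration begins (PF_Z). The comparison took the 3 PF_Z and the 3 PF_L small RNA libraries, 6 of the 9 libraries of the series, and all carried the same genotype and no treatment. The other 3 libraries, from the big bud stage (PF_D), entered the filter for testing, the estimate of the spread and the alternative scalings. Some of their levels are given alongside. The age of the petals, the number of plants behind each library and the cells of the petal that were sampled are not stated in the labels, and petals were taken from a planting of open-ground plants, with 3 biological repetitions per stage. After repeated lines were left out and each sequence was counted once, 1660 distinct miRNA sequences remained, and 1637 of them were above 0 in at least 1 of the 6 libraries.

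Plant miRNAs are short RNAs, mostly of 21 or 22 nucleotides, that are cut from hairpin precursors by a Dicer-like enzyme and loaded into an ARGONAUTE protein, where they guide cleavage or repression of mRNAs with a nearly complementary site. Members of a family share most of their sequence and usually share their targets. Several old families hold transcription factors in check: miR156 acts on SPL genes, miR172 on AP2-like genes, miR396 on growth-regulating factors, and miR828 and miR858 on R2R3-MYB genes, some of which control anthocyanin synthesis. Others act on hormone signaling, such as miR393 on auxin receptors and miR160 on auxin response factors. The strand opposite the usual guide, often called the passenger strand, is also sequenced, so one precursor can give 2 listed forms. In bulk petals, fewer cells of a type and less RNA per cell cannot be told apart.

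The sequences of the 8 called rises are shown first. Bases 2 to 8, the seed, are in capitals, and T stands for U as in the deposited table. No seed was shared between any pair of them.
mdm-miR396a_1ss20AT: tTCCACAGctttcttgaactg
csi-MIR156f-p5_1ss19AT: tGACAGAAgagagagagttc
mdm-miR393a_1ss22TC: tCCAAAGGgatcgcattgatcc
mdm-miR171i_1ss1TC: cGAGCCGAaccaatatcactc
csi-miR166c-5p_L-1R+1_1ss21GA: gGAATGTTgtctggttcgaaa
ppe-miR172a-5p_3ss2TG9AT21GA: gGAGCATCttcaagattcaca
PC-5p-1384_1876: cAGAGTTGtaatatattgata
PC-3p-5481_553: tCAGAGCAtccacaacctctac

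A name gives the species and entry of the nearest miRBase miRNA (mdm, apple; csi, sweet orange; ppe, peach), and a suffix marks where the strawberry read departs from that entry, by added or missing end bases (L, R) or by substitutions (ss). Names with p5 or p3 mark an arm of a listed precursor, and names with PC are predicted miRNAs with no database entry. The first sequence is also listed as mdm-miR396b.

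Values are normalized reads, which are reads multiplied by 1 factor per library. From the most common value above 0, 1 read was worth 0.713 to 0.882 in PF_L and 1.05 to 1.09 in PF_Z. The listed sequences held 1054928 to 1239877 reads per library in PF_L and 751798 to 1103233 in PF_Z, and 1332 to 1382 against 1216 to 1289 sequences were above 0. They made up 6.54% to 8.71% of the valid reads in PF_L and 6.79% to 13.5% in PF_Z. The share of raw reads removed as adapter or wrong length was 2.35% to 2.93% in PF_L and 22.7% to 33.8% in PF_Z, lowest among PF_Z in replicate 3, and the part of this difference in the results below was not tested. The Pearson correlation of log2(value + 1) over the 527 sequences with a mean of at least 5 was 0.957 to 0.977 within PF_L, 0.953 to 0.961 within PF_Z and 0.928 to 0.955 between the stages. PF_Z replicate 3 correlated with PF_L replicate 1 at 0.955, above the 0.953 of PF_Z replicates 1 and 3.

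Of the 1511 sequences with a value above 0 in at least 3 of the 9 libraries, 17 differed between PF_Z and PF_L at a Benjamini-Hochberg adjusted p under 0.05 in limma, 1.13% of those tested. Of these, 8 were higher (0.529%) and 9 lower (0.596%) in PF_Z. At an unadjusted p under 0.05, 204 sequences differed (13.5%). The 3 libraries of the stages did not overlap for 276 sequences (18.3%). When libraries were scaled to their valid reads instead, the median log2 fold change of the 527 sequences with a mean of at least 5 moved from -0.04 to 0.24, and 22 sequences were called, 14 higher and 8 lower. In PF_Z the mean level of the called rises ran from 12.5 normalized reads (PC-3p-5481_553) to 26974 (mdm-miR396b), whereas 8 of the 9 falls had at most 30.7 normalized reads in any PF_L or PF_Z library.

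**Figure D1:**
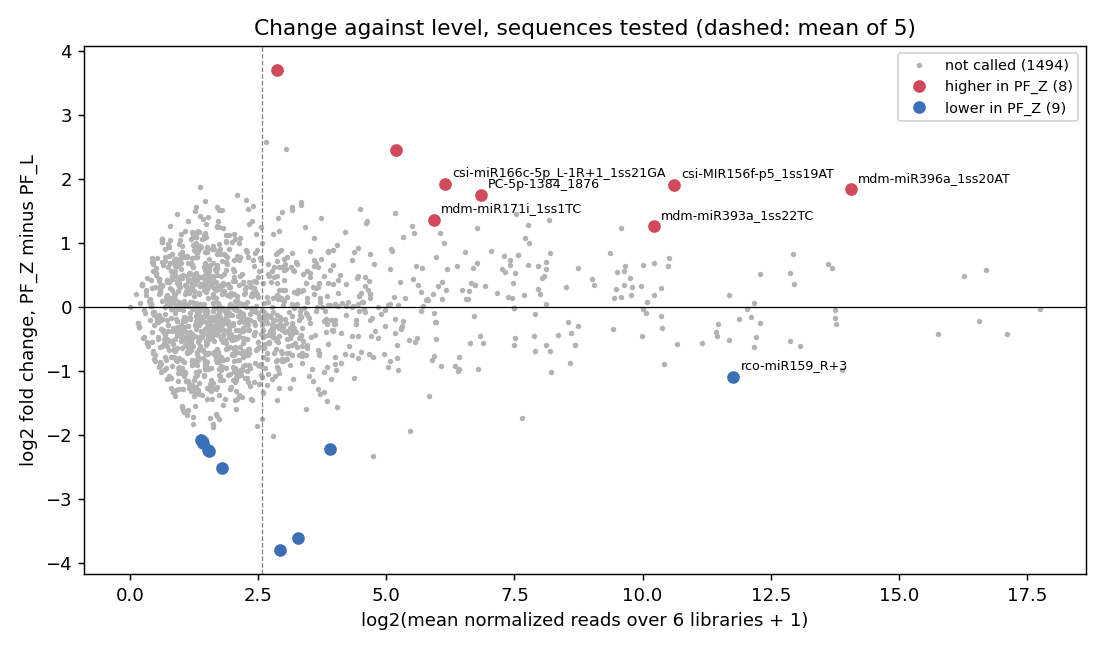
The log2 fold change of PF_Z over PF_L (y axis) of each of the 1511 tested sequences is plotted against the log2 of its mean over the 6 libraries plus 1 (x axis). The 8 called rises (red) all have a mean above 5, and 8 of the 9 called falls (blue) sit at the left, near few reads.

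The most abundant of the called rises in PF_Z was mdm-miR396b, a guide against growth-regulating factors, which promote cell division in young organs. Its level was 5843, 9080 and 6971 normalized reads in PF_L and 26468, 36991 and 17462 in PF_Z. The lowest PF_Z library was thus above the highest PF_L library, and the ratio of the means was 3.70. On the log2(value + 1) scale the change was 1.84 ± 0.27 (SE, n = 3 per stage; limma adjusted p = 0.000971). Its share of all listed miRNA reads was 0.628% to 1.03% in PF_L and 2.21% to 4.13% in PF_Z. In PF_D its mean was 48324 normalized reads.

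The miR156 form csi-MIR156f-p5_1ss19AT stood at 594, 768 and 559 normalized reads in PF_L and at 1484, 3253 and 2738 in PF_Z. MiR156 keeps SPL transcription factors low and is best known for holding plants in the juvenile phase. The stages did not overlap, and the log2 change was 1.90 ± 0.27 (SE; limma adjusted p = 0.000971). The ratio of the means was 3.89.

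MiR393, which acts on the TIR1 and AFB auxin receptors, rose through its main form mdm-miR393a_1ss22TC. This form had 722, 794 and 589 normalized reads in PF_L and 1713, 1924 and 1401 in PF_Z, with no overlap. The log2 change was 1.26 ± 0.27 (SE; limma adjusted p = 0.0228), a ratio of means of 2.39. The opposite strand of this family, mdm-miR393g, went from 26.5, 24.97 and 25.6 to 67.4, 62.1 and 58.8 normalized reads, which did not pass the test (log2 difference 1.26, SE 0.31, adjusted p = 0.0580). In each library mdm-miR393g stood at 3.15% to 4.34% of the main form, in both stages. The call of the main form was lost when any PF_L library, PF_Z replicate 1 or PF_Z replicate 2 was left out (highest adjusted p = 0.167).

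Of the miR171 family, whose members act on GRAS genes, mdm-miR171i_1ss1TC rose from 27.4, 41.4 and 31.3 to 90.2, 100.2 and 70.3 normalized reads. The stages did not overlap, and the log2 change was 1.36 ± 0.28 (SE; limma adjusted p = 0.0149). It was not called without PF_L replicate 1, PF_L replicate 3 or PF_Z replicate 2, nor with only the 6 PF_L and PF_Z libraries in the fit (highest adjusted p over the alternatives 0.102).

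A pair of called rises came from strands that usually accompany a guide. The form csi-miR166c-5p_L-1R+1_1ss21GA had 31.8, 28.5 and 26.4 normalized reads in PF_L and 118, 105 and 111 in PF_Z, a log2 change of 1.91 ± 0.26 (SE; limma adjusted p = 0.000954). The form ppe-miR172a-5p_3ss2TG9AT21GA had 6.17, 20.7 and 7.42 normalized reads in PF_L and 66.3, 70.8 and 43.0 in PF_Z, a log2 change of 2.45 ± 0.39 (SE; limma adjusted p = 0.00247). Both were above every PF_L library in every PF_Z library.

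The other 2 rises were predicted miRNAs without a family. PC-5p-1384_1876 went from 30.0, 74.9 and 58.6 to 171, 168 and 181 normalized reads (log2 change 1.74 ± 0.31, SE; limma adjusted p = 0.00630). PC-3p-5481_553 was listed at 0 in all 3 PF_L libraries and at 7.61, 15.2 and 14.7 normalized reads in PF_Z, at least 5.17-fold higher when each PF_L library is set at 3 reads (limma adjusted p = 7.63e-05). Its level in PF_D was 155, 257 and 277 normalized reads. It passed the filter only through its PF_Z and PF_D values, and its PF_Z values rest on few reads. Of the 8 called rises, all had a higher mean in PF_D than in PF_Z.

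**Figure D2:**
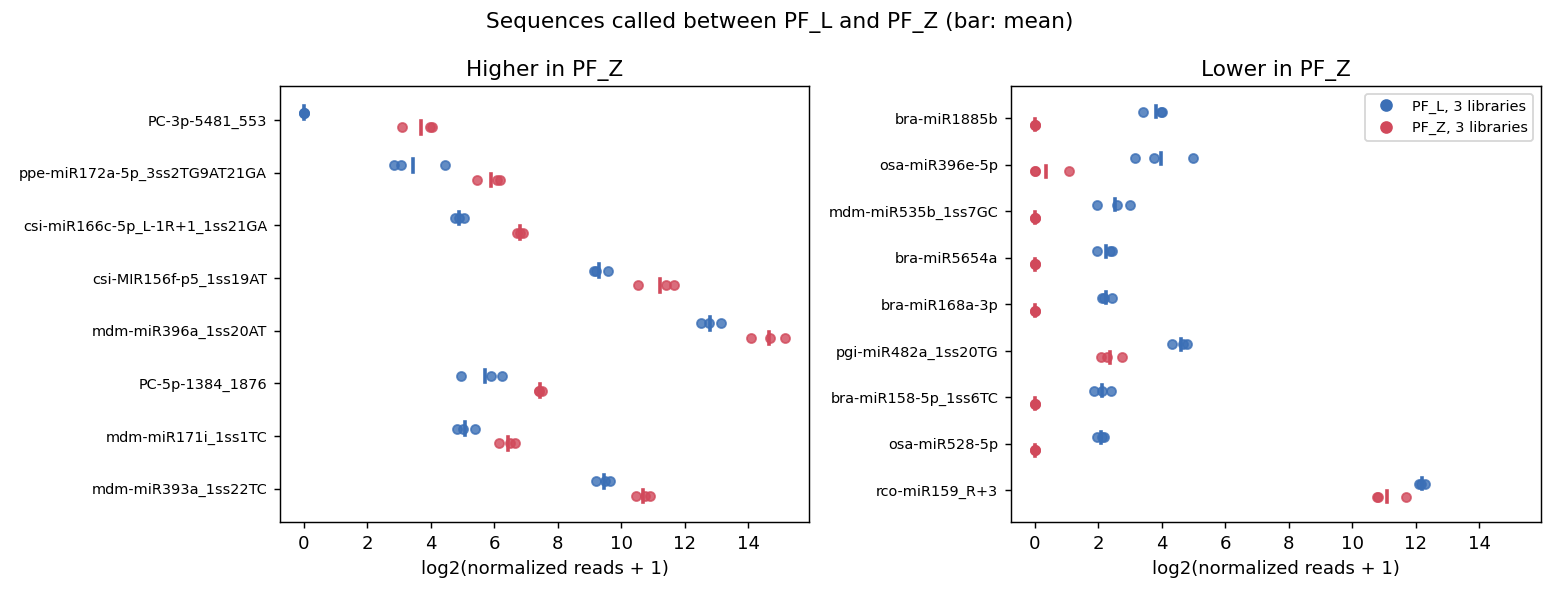
Each of the 17 called sequences is shown with its log2(normalized reads + 1) (x axis) in the 3 PF_L (blue) and 3 PF_Z (red) libraries as points, with the stage mean as a bar. The points of the stages do not overlap in any row, and 6 of the 9 sequences on the right are at 0 in all PF_Z libraries.

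Among the falls, rco-miR159_R+3 was the only one at a high level. MiR159 acts on GAMYB genes, which are best known for their part in anthers and pollen. The fallen form is the usual guide mdm-miR159d with 3 further bases, and both are shown because the pair behaved differently.
mdm-miR159d: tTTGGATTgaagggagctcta
rco-miR159_R+3: tTTGGATTgaagggagctctattt
The longer form had 4366, 4606 and 5074 normalized reads in PF_L and 1750, 1816 and 3318 in PF_Z. Its highest PF_Z library was below its lowest PF_L library, and the log2 change was -1.09 ± 0.25 (SE; limma adjusted p = 0.0410). The 21-nucleotide guide, the most abundant sequence of the table, had 186968, 237316 and 244384 normalized reads in PF_L and 272576, 200244 and 183156 in PF_Z, with overlap (log2 difference -0.04 ± 0.25, SE; adjusted p = 0.961). The longer form stood at 1.94% to 2.34% of the guide in PF_L and at 0.642%, 0.907% and 1.81% in PF_Z replicates 1 to 3. The call of the longer form was lost without any 1 of 7 libraries, all of PF_L, PF_Z replicates 1 and 2 and PF_D replicates 2 and 3, when libraries were scaled to equal totals or to their valid reads, and with only the 6 PF_L and PF_Z libraries in the fit (highest adjusted p over all alternatives 0.232).

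Of the other 8 called falls, 6 were listed at 0 in every PF_Z library, so they passed the filter only through the stage in which they were present. The largest of these was bra-miR1885b, known from Brassica, with 9.70, 14.98 and 14.85 normalized reads in PF_L, at least 4.08-fold lower in PF_Z when each PF_Z library is set at 3 reads (limma adjusted p = 0.00346). The other 5, mdm-miR535b_1ss7GC, bra-miR168a-3p, bra-miR5654a, bra-miR158-5p_1ss6TC and osa-miR528-5p, had 2.65 to 7.06 normalized reads in PF_L, close to the 3 reads per library that a listed 0 allows (2.14 to 3.27 normalized reads). The rice form osa-miR396e-5p had 7.94, 30.7 and 12.4 normalized reads in PF_L and 1.09, 0 and 0 in PF_Z. The miR482 form pgi-miR482a_1ss20TG had 24.7, 26.8 and 18.97 against 3.81, 3.27 and 5.77 normalized reads (log2 change -2.23 ± 0.41, SE; limma adjusted p = 0.00854). Without PF_Z replicate 2 the calls of pgi-miR482a_1ss20TG and of those 5 were lost, and that of pgi-miR482a_1ss20TG also without PF_L replicate 1 and those of bra-miR158-5p_1ss6TC and osa-miR528-5p also without PF_Z replicate 1. With only the 6 PF_L and PF_Z libraries in the fit the calls of those 5 were lost too (highest adjusted p over the alternatives 0.121).

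The miR396 forms are shown together, because nearly the same sequence gave 3 different patterns.
mdm-miR396b: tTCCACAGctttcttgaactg
mdm-miR396c: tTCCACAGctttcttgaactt
osa-miR396e-5p: tCCACAGGctttcttgaactg
The forms mdm-miR396b and mdm-miR396c share the seed and differ in 1 base. Whereas mdm-miR396b rose, mdm-miR396c had 7348, 10341 and 10972 normalized reads in PF_L and 17727, 18334 and 10234 in PF_Z, with overlap (log2 difference 0.67 ± 0.25, SE; adjusted p = 0.246). The level of mdm-miR396b was 63.5% to 87.8% of that of mdm-miR396c in PF_L and 149% to 202% in PF_Z. The rice form osa-miR396e-5p has another seed, and it was near 0 in PF_Z, where mdm-miR396b was higher. The opposite strand csi-miR396f-3p_1ss20GC had 18545, 13999 and 10411 normalized reads in PF_L and 14560, 14698 and 11214 in PF_Z (log2 difference -0.06 ± 0.25, SE; adjusted p = 0.941).

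**Figure D3:**
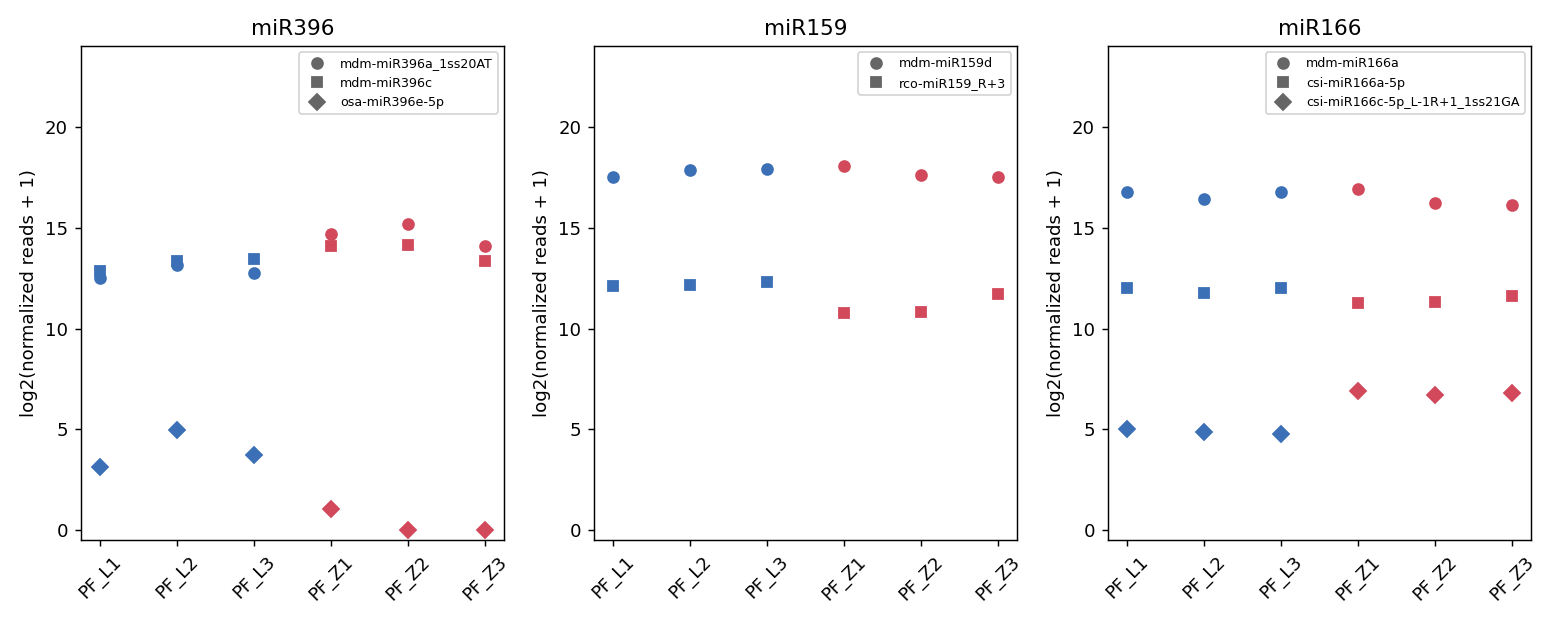
The log2(normalized reads + 1) (y axis) of related forms of miR396, miR159 and miR166 is plotted for the 3 PF_L (blue) and 3 PF_Z (red) libraries (x axis), with 1 marker shape per form. In miR396 the circles move above the squares in PF_Z while the diamonds drop to 0 in 2 libraries, in miR159 only the squares are lower, and in miR166 only the diamonds are higher.

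Entries with the unmodified name of a rice or Brassicaceae miRNA (osa, ath, aly, bra and bna) were mostly listed at 0 in PF_Z. There were 19 such sequences, of which 15 were tested, and 5 were called lower and 0 higher, against 0.596% called lower among all tested sequences. At an unadjusted p under 0.05, limma gave 10 lower and 0 higher, where 13.5% of all tested sequences differed in either direction. Of the 5 called, 4 were at 0 in all PF_Z libraries and passed the filter through their PF_L values, so nothing is read from these counts against the background. All 19 were above 0 in at least 1 PF_L library and 12 were at 0 in all PF_Z libraries. Their summed level was 43.7, 69.6 and 57.7 normalized reads in PF_L, 5.44, 2.72 and 7.35 in PF_Z and 5.10, 3.95 and 9.59 in PF_D, which corresponds to 49.5 to 97.5 reads per library in PF_L and 2.5 to 7 in PF_Z. The highest single values were 30.7 in PF_L and 2.72 in PF_Z. Several of these names, such as miR528 of monocots and miR1885 of Brassica, belong to families known from those plants, and the source of these reads was not tested. The 60 sequences with tRNA- or rRNA-like names summed to 1380 to 2240 normalized reads in PF_L and 1128 to 2115 in PF_Z, and 0 of the 53 tested were called in limma (3 higher and 1 lower at an unadjusted p under 0.05).

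Of the 139 families tested, 14 differed (10.1%), 6 higher (4.32%) and 8 lower (5.76%) in PF_Z. Of the 8 lower families, 6 were listed at 0 in every PF_Z library and passed the filter through their PF_L values. The higher family miR6280 was listed at 0 in every PF_L and PF_D library and passed it only through its PF_Z values. At an unadjusted p under 0.05, 32 families differed. The higher families with many reads were miR156, miR393 and miR396. The miR156 total was 1352, 1771 and 1434 normalized reads in PF_L and 3049, 4369 and 3547 in PF_Z (log2 change 1.26 ± 0.23, SE; limma adjusted p = 0.00433). The miR393 total was 759, 826 and 618 against 1791, 2005 and 1477 (1.26 ± 0.29, SE; adjusted p = 0.0195). The miR396 total was 36685, 37314 and 32487 against 64214, 76018 and 46392 (0.78 ± 0.21, SE; adjusted p = 0.0353). The libraries of the stages did not overlap for any of these 3 totals. The miR393 call was lost without any 1 PF_L library or PF_Z replicate 2 (highest adjusted p over the alternatives 0.0984). The miR396 call was lost without any 1 PF_L or PF_D library or PF_Z replicate 2, under median-of-ratios scaling, and with only the 6 PF_L and PF_Z libraries in the fit (highest adjusted p over the alternatives 0.140).

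The lower family with many reads was miR390, which triggers the trans-acting siRNAs that hold auxin response factors in check. Its total was 23327, 20741 and 19933 normalized reads in PF_L and 9623, 14168 and 11143 in PF_Z, with no overlap (log2 change -0.89 ± 0.23, SE; limma adjusted p = 0.0353). The guide mdm-miR390a, with 92.5% of the family's reads, had 22073, 19422 and 19071 against 8606, 12475 and 9843 normalized reads. By itself it did not pass (log2 difference -0.98 ± 0.26, SE; adjusted p = 0.0785), except without PF_D replicate 2 (adjusted p = 0.0499). Its 24-nucleotide form ath-miR390a-5p_L+3 had 91.7, 52.1 and 54.4 against 5.44, 23.96 and 29.4 normalized reads (adjusted p = 0.0846), and it passed with a pseudocount of 5 (adjusted p = 0.0375) and without PF_Z replicate 3 (adjusted p = 0.0357). The opposite strand csi-miR390a-3p_2ss15AG21AC had 772, 678 and 426 normalized reads in PF_L and 685, 1317 and 936 in PF_Z, with overlap, so that its level relative to the guide was 2.24% to 3.50% in PF_L and 7.96% to 10.6% in PF_Z. The call of the miR390 total was lost without any 1 library of either stage and without PF_D replicate 3, and with scaling to the valid reads. It was also lost with the replicate number as a block, over 9 or 6 libraries (highest limma adjusted p over the alternatives 0.179).

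The remaining 10 called families held few reads, of which 7 lost the call without at least 1 library and 5 with only the 6 PF_L and PF_Z libraries in the fit. The totals of miR1885, miR5654, miR528, miR1425, miR158, miR391 and miR824 were 0.825 to 14.98 normalized reads per PF_L library and at most 1.09 in PF_Z. The totals of miR6280, miR3623 and miR845 were at most 1.76 in PF_L and 1.09 to 10.5 in PF_Z, which is 1 to 10 reads.

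**Figure D4:**
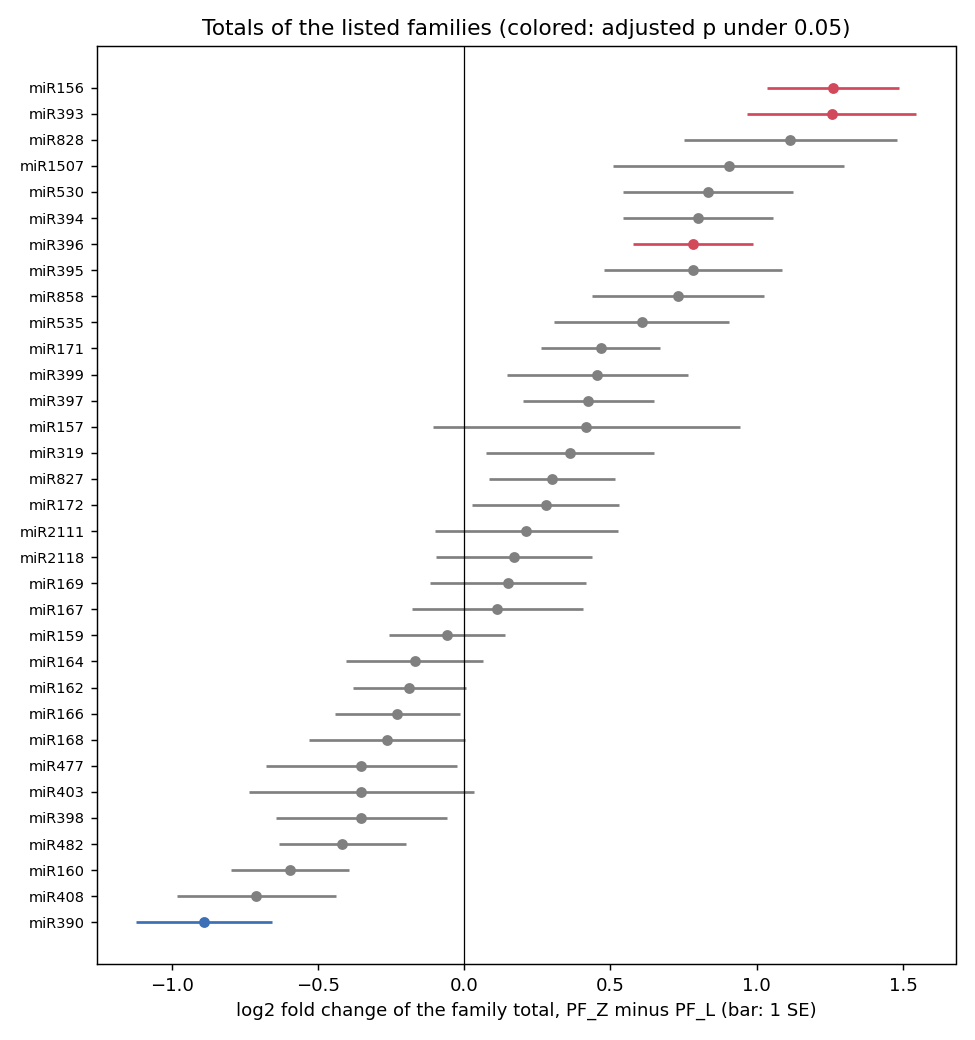
The log2 fold change of each listed family's total (x axis, bars 1 SE) is shown for 33 families in order of size. MiR156, miR393 and miR396 (red, 1.26, 1.26 and 0.78) and miR390 (blue, -0.89) passed the test, and the other families (grey) did not.

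Of the families with lists of known targets, miR156 was the 1 of the 3 SPL-directed families that passed. The miR535 total was 10150.4, 9579 and 10146 normalized reads in PF_L and 26312, 12121 and 10928 in PF_Z. The stages did not overlap, but it was high mainly in PF_Z replicate 1 and did not pass (log2 difference 0.61, limma adjusted p = 0.244). The miR157 family was scarce. Within miR156 the form listed as mdm-miR156a had 113, 154 and 122 against 367, 320 and 173 normalized reads with no overlap (log2 difference 1.08 ± 0.32, SE; adjusted p = 0.134; without PF_Z replicate 3 1.41, adjusted p = 0.0327). The form ppe-miR156f_L+1 had 114, 334 and 188 against 543, 286 and 198, with overlap. In the opposite direction, the 3p form mtr-miR156i-3p_L-1_2ss14TA22TG had 302, 250 and 328 against 196, 184 and 165 normalized reads (adjusted p = 0.217). The sequences of the called miR156 form and of the scarcer mdm-miR156a are shown, because only the first was called.
csi-MIR156f-p5_1ss19AT: tGACAGAAgagagagagttc
mdm-miR156a: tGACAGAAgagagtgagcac
Both have 20 nucleotides and the same seed, and they differ in 3 bases. The called form stood at 460% to 525% of mdm-miR156a in PF_L and at 405%, 1018% and 1581% in PF_Z replicates 1 to 3.

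The R2R3-MYB-directed families did not pass. The guide mdm-miR828a had 365, 655 and 307 normalized reads in PF_L and 503, 1584 and 1196 in PF_Z. PF_Z replicate 1 fell within the range of PF_L, the log2 difference was 1.23 ± 0.36 (SE; adjusted p = 0.118), and without that library it was 1.71 (adjusted p = 0.0070). The miR858 form ath-MIR858b-p5 had 797, 1360 and 1120 against 2030, 2016 and 1439 normalized reads, with no overlap (log2 difference 0.76 ± 0.28, SE; adjusted p = 0.230). The form mdm-miR858 had 148, 229 and 202 against 349, 334 and 219, with overlap (adjusted p = 0.332). The paper's form ppe-miR858_R-2, which it pairs with the target FvMYB308, was not found in this spelling and could not be looked up.
mdm-miR828a: tCTTGCTCaaatgagtattcca
ath-MIR858b-p5: tTCGTTGTctgttcgaccttg
mdm-miR858: tTCGTTGTctgttcgacctga
The miR858 forms share their seed.

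In the auxin list of 4 families, miR393 rose, miR390 fell, and miR160 and miR167 did not pass. The miR160 guide mdm-miR160a, directed at auxin response factors, had 10489, 9942 and 10490 normalized reads in PF_L and 8438, 5742 and 6305 in PF_Z. All PF_Z libraries were below all PF_L libraries (log2 difference -0.61 ± 0.22, SE; adjusted p = 0.214). Of the 8 miR160 sequences with a mean of at least 5, 6 were lower in every PF_Z than in every PF_L library, against 12.5% of the 527 such sequences, and 0 were called. At an unadjusted p under 0.05 6 of the 15 tested members differed, all lower in PF_Z, where 13.5% of all tested sequences differed in either direction. Its longer form mdm-miR160a_L+3 and its form with 1 other base, mdm-miR160a_1ss21AG, had 47.6, 49.2 and 49.5 against 21.2, 27.8 and 23.6, and 129, 98.8 and 106 against 72.3, 46.8 and 52.0 normalized reads. The miR160 total gave -0.60 ± 0.20 (SE; adjusted p = 0.0878), and it passed with equal library totals (adjusted p = 0.0367) and without PF_Z replicate 1 (adjusted p = 0.0334). The miR167 guide mdm-miR167b had 2780, 2920 and 3063 against 5853, 2821 and 2243, with overlap. Its family's 3p form csi-miR167e-3p had 89.1, 80.6 and 72.6 against 21.7, 42.5 and 29.4 normalized reads, with no overlap (log2 difference -1.39 ± 0.45, SE; limma adjusted p = 0.170).

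Among the single-list families, the F-box gene LCR is the target of miR394. Its guide mdm-miR394a had 4805, 6052 and 5607 normalized reads in PF_L and 13610, 10367 and 6465 in PF_Z, with no overlap (log2 difference 0.83 ± 0.26, SE; adjusted p = 0.147). Without PF_Z replicate 3 it was 1.12 (adjusted p = 0.0206). The guide mdm-miR530a_2ss18TC20GC went the same way, with 471, 445 and 445 against 1278, 779 and 537 normalized reads (0.84 ± 0.27, SE; adjusted p = 0.170; without PF_Z replicate 3 1.14, adjusted p = 0.0321). The totals of both families passed with equal library totals (adjusted p = 0.0193 for miR394 and 0.0344 for miR530) and without PF_Z replicate 3 (0.0118 and 0.0202). For both, PF_Z replicate 1 was the highest library and PF_Z replicate 3 the lowest of its stage.

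The GRAS-directed miR171 total was 102708, 100486 and 102191 normalized reads in PF_L and 191159, 126248 and 115297 in PF_Z, and did not pass (log2 difference 0.47 ± 0.20, SE; adjusted p = 0.192), except with equal library totals (adjusted p = 0.0172). Its main sequence ppe-miR171a, also listed as mdm-miR171g, held 8.40% to 9.63% of listed reads in PF_L and 12.6% to 14.5% in PF_Z. The AP2-directed guide mdm-miR172a_R+1 had 1182, 1401 and 906 against 1776, 1622 and 954, with overlap (adjusted p = 0.654), while its called passenger form stood at 0.523% to 1.48% of it in PF_L and 3.73% to 4.51% in PF_Z. For miR166, which acts on HD-ZIP III genes, the guide mdm-miR166a had 110153, 87634 and 110164 against 122848, 77364 and 70270, with overlap (adjusted p = 0.741).
csi-miR166a-5p: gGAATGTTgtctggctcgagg
csi-miR166c-5p_L-1R+1_1ss21GA: gGAATGTTgtctggttcgaaa
This pair of miR166 5p forms is shown because the forms share the seed and differ in 3 bases, and only the second was called. The first had 4049, 3436 and 4174 normalized reads in PF_L and 2450, 2560 and 3174 in PF_Z (log2 difference -0.51 ± 0.21, SE; adjusted p = 0.287). The second stood at 0.632% to 0.830% of the first in PF_L and 3.51% to 4.84% in PF_Z.

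The families with the most reads did not pass. The miR159, miR482 and miR166 totals gave log2 differences of -0.06, -0.42 and -0.23 (adjusted p = 0.892, 0.274 and 0.597), and the first and the third change sign when libraries are scaled to their valid reads. NAC-directed miR164 (-0.17), and miR162 (-0.19) and miR168 (-0.26), which act on Dicer-like and ARGONAUTE genes of the silencing machinery, did not pass and change sign in the same way. The abundant bdi-miR7782-3p_R-4_2ss5-A21TG had 53966, 65335 and 77207 normalized reads in PF_L and 111009, 101899 and 65205 in PF_Z, with overlap. The 2 most abundant miR482 sequences, gra-MIR482-p3_1ss20TG and mdm-miR482b_2ss11CT20TC, both gave a log2 difference of -0.42 (adjusted p = 0.474).

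The nutrient lists did not pass either. For miR395, which acts on sulfate assimilation, 5 of the 6 sequences with a mean of at least 5 were higher in every PF_Z library, against 12.7% of all 527 such sequences, and the total was 266, 284 and 236 against 352, 563 and 459 normalized reads (log2 difference 0.78 ± 0.30, SE; adjusted p = 0.136). The copper families differed in sign without passing, with miR397 at 0.42, miR398 at -0.35 and miR408 at -0.71 on the log2 scale. Within miR398 the main guide mdm-miR398b_1ss1TC, with 62.8% of the family's reads, overlapped between the stages. It had 9326, 7746 and 9052 against 8986, 4891 and 4877 normalized reads (limma adjusted p = 0.380). The scarcer guide form ppe-miR398b_2ss10AC20TG had 161, 119 and 154 against 88.1, 56.3 and 76.7 normalized reads, while the 5p form ppe-miR398a-5p_2ss12GA15TC had 233, 148 and 102 against 353, 629 and 270. Neither passed (adjusted p = 0.118 and 0.129).

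Among the sequences, 25 match a miRNA named in the study with a level or a target. Of these, 3 were called higher and 1 lower, 8 overlapped between the stages, and 13 were separated without a call. Over all 1511 tested sequences, 1.13% were called and 18.3% did not overlap. The study reported many of the named miRNAs as differentially expressed in these same libraries, so nothing is read from these counts against the background. PC-3p-40_65815, the most abundant predicted miRNA among them, had 6296, 6577 and 5533 normalized reads in PF_L and 11271, 8654 and 7043 in PF_Z (log2 difference 0.53 ± 0.22, SE; adjusted p = 0.302).

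Under the deposited scaling, the direction of change differed with length, described here over sequences, which are not replicates of a stage. Among those with a mean of at least 5 normalized reads, 10 of 26 sequences of 20 nucleotides were higher in every PF_Z than in every PF_L library and 0 were lower, with a median log2 fold change of 0.67. Of 187 sequences of 21 nucleotides, 41 were higher and 26 lower (median 0.27), and of 79 of 22 nucleotides, 7 were higher and 11 lower (median -0.08). Of 26 sequences of 23 nucleotides, 0 were higher and 6 lower (median -0.46), and of 190 of 24 nucleotides, 3 were higher and 23 lower (median -0.31). Few sequences had other lengths. Of 5 sequences of 18 nucleotides, 4 were higher and 0 lower (median 0.84), and of 7 of 19 nucleotides, 2 were higher and 0 lower (median 0.80). The 7 of 25 nucleotides went against the order by length, with 0 higher, 0 lower and a median of 0.18. Over all 527 such sequences 67 were higher (12.7%), 66 lower (12.5%), and the median was -0.04. With libraries scaled to their valid reads that median was 0.24, so the signs of the smaller medians depend on the scaling. Medians by length were not taken under that scaling. Known miRNAs had a median of 0.16 (n = 269) and predicted ones of -0.22 (n = 258), and of the 964 predicted sequences 687 were of 23 to 25 nucleotides. Within 20 to 22 nucleotides the medians were 0.22 for known and 0.12 for predicted sequences. Within 23 to 25 they were -0.02 and -0.33.

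As a share of the listed reads, sequences of 20 nucleotides took 0.810%, 1.09% and 0.851% in PF_L and 1.68%, 1.94% and 1.48% in PF_Z. The stages did not overlap, and the difference of 0.783 percentage points gave p = 0.10 in an exact two-sided permutation test, the smallest that 3 against 3 libraries allow. Sequences of 21 nucleotides took 68.5%, 74.7% and 69.3% against 77.2%, 78.8% and 73.9% (exact p = 0.20). Those of 22 nucleotides took 29.0%, 22.8% and 28.4% against 20.3%, 18.2% and 22.9% (exact p = 0.20). Those of 23 nucleotides took 0.480%, 0.342% and 0.404% against 0.292%, 0.282% and 0.536% (exact p = 0.70). Those of 24 nucleotides took 1.09%, 0.985% and 0.988% against 0.433%, 0.604% and 1.11% (exact p = 0.40). PF_Z replicate 3, which lost the fewest reads as adapter or wrong length in its stage, had the PF_L level of 24-nucleotide reads, and the other PF_Z libraries had less. Whether the loss of reads bears on this share was not tested. Sequences of 18 and 19 nucleotides took at most 0.0440% in PF_L, and their shares did not overlap between the stages either (0.0190% to 0.0232% against 0.0311% to 0.0443%, and 0.0267% to 0.0440% against 0.0536% to 0.0707%; exact p = 0.10 for each). The share of 25 nucleotides overlapped (exact p = 0.70). Adjusted over the 8 lengths by Benjamini-Hochberg, the lowest exact p was 0.267.

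**Figure D5:**
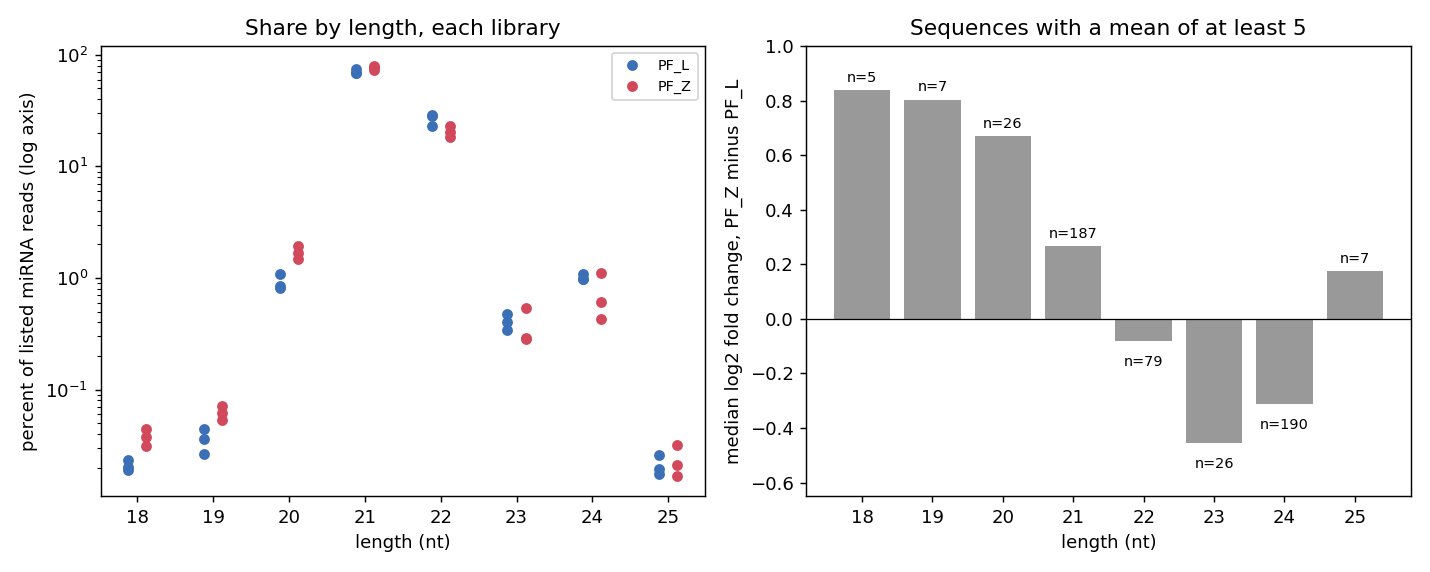
Left, the share of listed miRNA reads (percent, log axis) by length in each PF_L (blue) and PF_Z (red) library, where the points of the stages do not overlap at 18, 19 and 20 nucleotides. Right, the median log2 fold change by length over sequences with a mean of at least 5 (n above or below each bar), which is 0.84 at 18, -0.46 at 23 and 0.18 at 25 nucleotides.

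In the pairs of a long and a short form given here, the longer form tended to a lower share of the shorter in PF_Z. The 22-nucleotide mdm-miR160a_R+1 did not go this way. Its log2 difference was -0.49, against -0.61 for the 21-nucleotide mdm-miR160a, and neither passed. The 23-nucleotide osa-miR162a_R+2, which extends rco-miR162 by 2 bases, had 95.3, 64.9 and 99.0 against 53.3, 33.8 and 48.3 normalized reads, and stood at 1.59% to 2.06% of rco-miR162 in PF_L and 0.801% to 1.27% in PF_Z. The 24-nucleotide mdm-miR160a_L+3 stood at 0.454% to 0.495% of mdm-miR160a in PF_L and 0.251% to 0.484% in PF_Z, with overlap. The 24-nucleotide ath-miR390a-5p_L+3 stood at 0.268% to 0.416% of mdm-miR390a in PF_L and 0.0632% to 0.299% in PF_Z, with overlap.
mdm-miR390a: aAGCTCAGgagggatagcgcc
ath-miR390a-5p_L+3: aTCAAGCTcaggagggatagcgcc
rco-miR162: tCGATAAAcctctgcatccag
osa-miR162a_R+2: tCGATAAAcctctgcatccagtt
In the miR390 pair the 3 added bases at the start move the seed, and in the miR162 pair, as in miR159, the seed is unchanged.

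Some sequences were listed at 0 throughout either PF_L or PF_Z, whatever their level in PF_D. There were 28 sequences above 0 in all 3 PF_L and no PF_Z library, the highest at 14.98 normalized reads, and 11 above 0 in all 3 PF_Z and no PF_L library, the highest at 15.2. Valid reads were fewer in every PF_Z library (8178629 to 11065157) than in every PF_L library (14105524 to 16131629), while the reads in listed sequences overlapped. The part of depth in these counts was not tested.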

How the data were processed

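Small RNA from petals was sequenced by the authors as 50 bp single-end reads. Adapters, junk, common RNA families and repeats were removed with ACGT101-miR, and sequences of 18 to 25 nucleotides were compared with miRBase 22.0 and the Fragaria vesca genome. The deposited signal is the authors' normalized read value per miRNA and library, whose formula is not given in the sources used here. In each of the 9 libraries 69.1% to 72.2% of the values above 0 were whole multiples of 1 read within 0.01 read, and 98.3% to 99.4% multiples of 0.5 read, so no count model was used. The paper names CTAB for RNA extraction and the labels Trizol.

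From 1876 lines, 173 full repeats were left out, and 1703 names gave 1660 sequences, of which 42 had several names. Stages were compared with limma 3.58.1 (R 4.3.3; trend) on log2(value + 1) over all 9 libraries, for sequences above 0 in at least 3, with two-sided Benjamini-Hochberg adjusted p under 0.05 called. A fold change on this scale understates the change of low sequences. Known sequences were summed into 162 families by the number in the name. In simulated reads of this comparison (1508 sequences tested), 53% of 100 sequences changed 2-fold and 87% of 100 changed 4-fold were recovered, and 2 unchanged ones were called. The changed sequences all had a mean of at least 5 over the 9 libraries, and 1 relative spread was used for all sequences. These rates therefore do not cover changes in scarcer sequences or sequences with a larger spread. Tables used Python 3.11.15 with pandas 2.3.3, numpy 2.4.6, scipy 1.17.1 and matplotlib 3.10.9.

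Named were all calls, the 8 largest rises and falls with a mean of at least 50 and no overlap, the 8 most abundant sequences, totals and main members of the listed families, and miRNAs named in the paper. Some that met the rule are covered by counts only, 6 names were not found in this spelling, and any other sequence was chosen after its values were seen. Members and lists were chosen with earlier results of these data known. The p-values measure the spread between the sampled libraries, and floors cover counting error only, since reads carry no molecular identifiers.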

Additional observations from a re-analysis of the deposited data

How the results depend on the processing

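Of the 17 called sequences, 8 were called in every alternative, and 16 under all 3 other scalings. Those 8 were mdm-miR396b, csi-MIR156f-p5_1ss19AT, csi-miR166c-5p_L-1R+1_1ss21GA, ppe-miR172a-5p_3ss2TG9AT21GA, PC-5p-1384_1876, PC-3p-5481_553, bra-miR1885b and osa-miR396e-5p. Of the 14 called families, miR156 and miR1885 were called in every alternative, and no named call changed sign under any.

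The count of 17 called sequences was 10 with only the 6 PF_L and PF_Z libraries in the fit, and 8 to 31 when 1 library was left out, with 8 without PF_Z replicate 2 and 31 without PF_Z replicate 3. The count of 14 called families was 9 with a pseudocount of 5, 5 with a mean of at least 5, 8 with only the 6 libraries, and 4 to 17 when 1 library was left out. It was 4 without PF_Z replicate 2, 6 without PF_L replicate 3, 7 without PF_D replicate 3, and 8 without PF_L replicate 1 or 2 or PF_D replicate 1 or 2. Under the other settings, the replicate block aside, both counts stayed within 1.5 times. The difference of 0.783 points in the share of 20 nucleotides was 0.546 with each listed name once and 0.992 without the most abundant sequence. Why these counts moved was not tested beyond the smaller number of sequences or libraries.

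Same-numbered libraries did not deviate together (correlations -0.06, 0.21 and -0.05), so the numbers were not taken to pair the samples. With the replicate number as a block, 20 sequences and 12 families were called over 9 libraries, and 11 sequences and 3 families over 6 libraries, a fit chosen after seeing the data. Over 9 libraries the block ended the calls of the miR390, miR6280 and miR845 totals. The planned count models were not run, because in every library many values above 0 were fractions of 1 read. Depth limits the sequences listed at 0, where 3 reads per library are 2.14 to 3.27 normalized reads.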
